A study of Homo sapiens with 12 samples.

Results

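The effect of a 1 h treatment with the clickable electrophilic purine CEP on gene expression was measured in HEK293T cells whose RNA had been labelled with 4-thiouridine (4SU). HEK293T is a human embryonic kidney cell line. Of the 12 poly(A) RNA-Seq libraries of the study, 6 belong to this comparison, chosen by the treatment on their labels. They are 3 replicates of cells given CEP and 4SU (CEP+4SU) and 3 replicates of cells given 4SU without CEP (4SU). Both groups carried 4SU at 100 µM for 16 h. CEP is the probe AHL-Pu-1, given at 25 µM for 1 h at 37 °C according to the design text and the methods of the study, while the protocol on the labels gives the same number in mM. The 6 remaining libraries, 3 of DMSO and 3 of CEP without 4SU, share no sample with this comparison and served as its counterpart without 4SU. The protocol on the labels is worded alike for all 12 libraries. It describes 4SU in SILAC DMEM, irradiation at 312 nm (1 J/cm2) on ice and then CEP in DMEM without serum. It does not say whether the cells without CEP had the same change of medium, so CEP and that change cannot be told apart. All libraries come from wild-type cells of 1 line. The design text calls the replicates independent, and no label names separate cultures or days, so p-values measure the spread between these libraries.

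CEP carries a chlorinated purine that reacts with cysteine side chains of proteins and an alkyne for later capture. 4SU is a uridine analog that cells build into new RNA, where long-wave ultraviolet light can crosslink it to bound protein. An hour is long enough for mRNAs with a short life to change level. Such mRNAs include those of the immediate early genes, which are transcribed without new protein synthesis when growth factor or stress kinases are switched on. Tubulin mRNAs are stable by comparison and are marked for decay when free tubulin in the cell rises. In that autoregulation the first residues of a nascent alpha- or beta-tubulin chain are recognised at the ribosome and the mRNA being translated is degraded.

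The sequences behind the main groups of genes that differed are shown here. The first 30 coding bases of tubulin mRNAs were read from the GENCODE 29 transcripts (GRCh38), and capitals mark codons 2 to 4, which encode the stretch read in autoregulation. TUBG1, a gamma-tubulin, is given for contrast, and its codons differ there.
TUBB4B (chr9:137241361-137241390, plus strand): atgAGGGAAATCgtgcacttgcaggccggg
TUBB2A (chr6:3157434-3157463, minus strand): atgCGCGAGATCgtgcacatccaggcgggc
TUBB (chr6:30720507-30720536, plus strand): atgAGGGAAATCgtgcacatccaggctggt
TUBA1A (chr12:49186807-49188979, minus strand, split by an intron): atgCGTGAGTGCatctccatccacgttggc
TUBA4A (chr2:219252204-219253858, minus strand, split by an intron): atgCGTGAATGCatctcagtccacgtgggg
TUBG1 (chr17:42609738-42609767, plus strand): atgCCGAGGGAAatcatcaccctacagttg
MT-TC, the mitochondrial cysteine tRNA gene whose counts fell most clearly, is the whole 66-base gene, with no base marked.
MT-TC (chrMT:5761-5826, minus strand): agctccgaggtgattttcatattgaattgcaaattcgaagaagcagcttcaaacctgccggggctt
The 100 bases before the RefSeq start of FOS (GRCh38.p14) hold 1 copy of TGACG, the core of the cAMP response element, in capitals.
FOS (chr14:75278728-75278827, plus strand): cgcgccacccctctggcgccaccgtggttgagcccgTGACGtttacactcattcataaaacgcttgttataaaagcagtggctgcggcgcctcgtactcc
TGACG, searched on both strands, begins 64 bases before the start and was found in 24.55% of 35116 RefSeq promoters of 300 bases. The window searched ran from 250 bases before to 50 bases after the start. The CArG box, the site of serum response factor, had 0 matches in this window of FOS and was found in 1.293% of promoters. Sites farther upstream were not searched, so the 0 does not mean that FOS lacks one. Such matches describe the sequence only.

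Counts on genes summed to between 16569114 and 18801229 in the 4SU libraries and between 18402617 and 20673502 in the CEP+4SU libraries. Levels are given in CPM (counts scaled by the total of a library, corrected with edgeR's TMM method), and 17729 of 58735 genes passed the filter on low counts. CEP+4SU replicate 2 stood apart, with 22627 genes with at least 1 count against 24376 to 25869 in the other 5 libraries. Among the libraries without 4SU, CEP replicate 2 was likewise lowest, with 22230 genes against 24546 to 24954. Mitochondrial genes took 1.31% to 1.47% of counts in 4SU and 1.16% to 1.40% in CEP+4SU (exact permutation test, two-sided, p = 0.3). Of 8 such library measures, the share of counts on protein-coding genes and the TMM factor reached an exact p of 0.1, the smallest that 3 against 3 libraries allow. HEK293T markers were expressed in both groups, at a summed level of 766 to 796 CPM in 4SU and 778 to 816 CPM in CEP+4SU for 6 of 6 genes. Of the 14 markers of melanocytes, blood, fibroblasts and endothelium, 8 were too low to be tested, among them TYR, CD3E and HBB with 0 counts in all 12 libraries. The melanocyte, blood and fibroblast or endothelium lists summed to 32.1 to 33.8, 5.72 to 6.47 and 2.03 to 2.48 CPM in 4SU, and to 30.9 to 33.7, 4.65 to 5.37 and 1.56 to 3.98 CPM in CEP+4SU.

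Few genes differed between CEP+4SU and 4SU at the threshold used. By edgeR's quasi-likelihood test with Benjamini-Hochberg adjustment, 8 of the 17729 genes (0.0451%) had an adjusted p of 0.05 or less, 2 of them higher and 6 lower in CEP+4SU. FOS and CYR61 rose, and SMN1, MT-TC, TUBB2A, TXNIP, TUBB4B and MT-ND2 fell. At an unadjusted p under 0.05, 750 genes (4.23%) were higher and 649 (3.66%) lower. All 3 CEP+4SU libraries lay above all 3 of 4SU for 1343 genes (7.58%) and below them for 1065 (6.01%). The median log2 fold change over all genes tested was 0.0031, and the median absolute change was 0.14. All 8 genes kept their direction in each of 20 other fits, which reuse the same libraries and are no separate support. With groups that do not overlap, leaving out 1 library could hardly reverse a direction. The calls depended on which libraries were included. Without 4SU replicate 1, 0 genes passed (edgeR, 570 genes at an unadjusted p under 0.05). Without any other single library 2 to 5 genes passed, 1 to 4 of them among the 8. FOS passed in 5 of the 6 fits with 1 library left out, and MT-TC in 4.

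**Figure D1:**
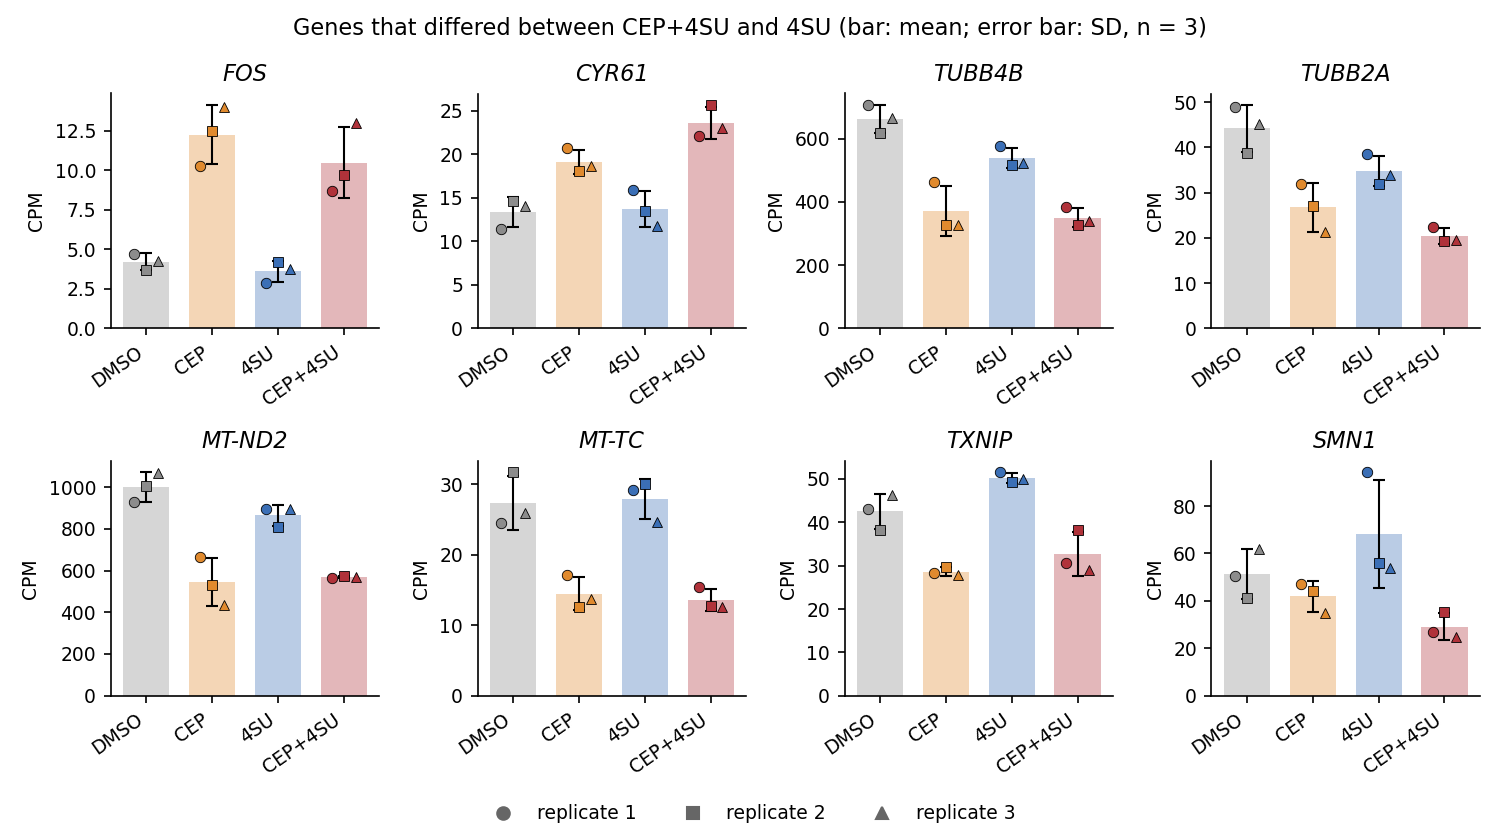
Level in CPM of the 8 genes with an adjusted p of 0.05 or less, in each of the 12 libraries (symbols), with the group mean (bar) and SD (error bar, n = 3). For each gene the 3 CEP+4SU libraries lie wholly above or wholly below the 3 libraries with 4SU, and SMN1 in 4SU replicate 1, at 94.3 CPM, is far from the 2 other 4SU replicates.

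The strongest response was that of FOS, an AP-1 transcription factor and the best known immediate early gene. FOS (ENSG00000170345, chromosome 14, 75278774 to 75282230) had 2.86, 4.19 and 3.75 CPM in 4SU replicates 1 to 3. With CEP it had 8.70, 9.73 and 13.0 CPM. The groups did not overlap, and the lowest level with CEP was above the highest without it. The counts behind these levels were 54 to 72 in 4SU and 162 to 259 in CEP+4SU. The difference was 2.92-fold, with a log2 fold change of 1.54 (SE 0.20, 95% interval 1.12 to 1.96, adjusted p = 0.00432). FOS passed in 17 of 20 other fits and failed in both limma fits of FPKM and without 4SU replicate 1 (adjusted p = 0.0638).

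CYR61, now named CCN1, encodes a secreted matrix protein that is both an immediate early gene and a target of the YAP-TEAD transcription complex. CYR61 (ENSG00000142871, chromosome 1, 85580761 to 85583962) had 15.8, 13.4 and 11.8 CPM in 4SU and 22.1, 25.7 and 23.0 CPM in CEP+4SU. All 3 libraries with CEP were above all 3 without it. The rise was 1.72-fold (log2 fold change 0.78, SE 0.13, adjusted p = 0.0380). CYR61 lost the threshold when any single library was left out, with adjusted p from 0.0656 to 0.342 in edgeR, and also in the edgeR fit of only the 6 libraries (adjusted p = 0.108) and in both limma fits.

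Immediate early genes did not move together, and some rose while others fell. Of 29 tested, 1 passed (FOS), while CYR61 was counted with the YAP-TEAD targets and not in this list. In it 4 were higher and 4 lower at an unadjusted p under 0.05, against 4.23% and 3.66% of all genes. Its genes lay wholly above the 4SU libraries in 3 cases and wholly below in 7, against 7.58% and 6.01% of all genes. The median log2 fold change of the list was -0.0054, against 0.0031 over all genes. EGR1, a zinc finger factor induced by growth signals, had 3.23, 5.48 and 4.85 CPM in 4SU and 7.52, 7.81 and 11.7 CPM in CEP+4SU. Its groups did not overlap, and its log2 fold change of 1.00 (SE 0.24) had an adjusted p of 0.481. JUN, the AP-1 partner of FOS, was lower in all 3 libraries with CEP, at 298, 246 and 327 CPM against 492, 413 and 387 CPM. Its log2 fold change was -0.57 (SE 0.11, adjusted p = 0.0881). JUNB and JUND, the other members of its family, had log2 fold changes of -0.42 and -0.43 (both adjusted p = 0.619). MYC, a growth regulator with a short-lived mRNA, had 281, 253 and 268 CPM in 4SU and 223, 184 and 192 CPM in CEP+4SU (log2 fold change -0.42, SE 0.083, adjusted p = 0.106). RHOB, a small GTPase induced early by growth factors, had a log2 fold change of -0.40 (SE 0.084, adjusted p = 0.214). JUN, MYC, EGR1 and RHOB were singled out after their values were seen. In the fit with DESeq2, JUN, MYC and RHOB passed. Of 20 other fits JUN and MYC each passed in 7, and EGR1 and RHOB each in 3. None of these genes passed when any single library was left out.

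The regulators around these genes did not behave alike, and the ID and HES regulators leaned lower than the others. Among 16 tested feedback genes of the ERK kinase pathway 0 passed by edgeR, and 1 had an unadjusted p under 0.05. That gene was DUSP5, a nuclear phosphatase of ERK, with 4.45, 4.72 and 4.38 CPM in 4SU and 7.95, 7.62 and 8.54 CPM in CEP+4SU. The groups did not overlap, and the log2 fold change was 0.83 (SE 0.18, adjusted p = 0.208). ETV5, a transcription factor downstream of ERK, had a log2 fold change of -0.47 (SE 0.35, adjusted p = 0.703). Of 23 YAP-TEAD targets CYR61 alone passed, and the median was 0.047. The 10 ID and HES regulators, repressors of differentiation with short-lived mRNAs, had a median of -0.16, with 8 lower and 2 higher. At an unadjusted p under 0.05, 1 was higher and 4 lower, against 4.23% and 3.66% of all genes. HES5 had 8.42, 8.08 and 7.98 CPM in 4SU and 6.12, 3.79 and 4.57 CPM in CEP+4SU (log2 fold change -0.76, SE 0.20, adjusted p = 0.619), and HES4 had a log2 fold change of -0.47. The 2 genes next by p among those that were higher were AC005332.3, a long non-coding RNA, and CEP85L, a centrosomal protein whose prefix has no relation to the probe. Their log2 fold changes were 1.20 (SE 0.28, adjusted p = 0.349) and 0.66 (SE 0.16, adjusted p = 0.376).

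Tubulin mRNAs were lower with CEP. Of 17 alpha- and beta-tubulin genes 14 were tested, and 12 had a lower level in CEP+4SU. Of the 14, 10 were lower at an unadjusted p under 0.05, against 3.66% of all genes, and 2 passed the threshold, against 0.0451%. The median log2 fold change of the 14 was -0.43, against 0.0031 over all genes tested. TUBB4B, a widely expressed beta-tubulin (ENSG00000188229, chromosome 9, 137241213 to 137243707), had 576, 518 and 523 CPM in 4SU and 383, 326 and 340 CPM in CEP+4SU. It was lower by a factor of 1.54 (log2 fold change -0.62, SE 0.11, adjusted p = 0.0380). TUBB2A (ENSG00000137267, chromosome 6, 3153669 to 3157526) had 38.6, 32.0 and 33.8 CPM in 4SU and 22.4, 19.4 and 19.4 CPM in CEP+4SU. It was lower by a factor of 1.71 (log2 fold change -0.77, SE 0.14, adjusted p = 0.0380). For both genes every library with CEP lay below every library without it. Each lost the threshold when any single library was left out, with adjusted p from 0.0622 to 0.431 for TUBB4B and 0.0837 to 0.444 for TUBB2A in edgeR, and in both limma fits. TUBB4B also lost it with a robust dispersion in edgeR (adjusted p = 0.0686), and TUBB2A with the trend on transcript length removed (adjusted p = 0.0566 in edgeR).

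Further tubulins lay on the same side without passing in the main fit. TUBB, the main beta-tubulin of these cells by FPKM (374 FPKM in 4SU), had 1293, 1219 and 1268 CPM in 4SU and 965, 877 and 871 CPM in CEP+4SU (log2 fold change -0.48, SE 0.094, adjusted p = 0.106). TUBA1A, TUBA1B and TUBA1C, alpha-tubulins encoded side by side on chromosome 12, had log2 fold changes of -0.55 (adjusted p = 0.229), -0.46 and -0.36 (both adjusted p = 0.619). In all 3 the groups did not overlap. Of the 14 tubulins tested, 9 lay wholly below the 4SU libraries and 0 wholly above, against 6.01% and 7.58% of all genes. TUBB passed in 8 of 20 other fits and TUBA1A in 5, with DESeq2 among them for both. With any single library left out neither gene passed. TUBA4A and TUBB6 had log2 fold changes of -0.85 and -0.39, TUBB2B and TUBB4A of -0.36 and -0.33, each with an adjusted p of 0.619. The 14 genes together had 3322, 2954 and 2984 CPM in 4SU and 2409, 2004 and 2197 CPM in CEP+4SU, a log2 difference of -0.49. Reads moving among these 14 genes would not change this sum. It does not cover reads given to other genes or left out of counting. TUBB2A and its close paralog TUBB2B together had a log2 difference of -0.54. The codons in capitals above are close among the tubulins that fell and those that did not pass, so these letters do not separate them.

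Genes that work with tubulin behaved otherwise. Of the 9 gamma-, delta- and epsilon-tubulins and gamma-tubulin complex genes, 1 was higher and 2 lower at an unadjusted p under 0.05, against 4.23% and 3.66% of all genes. The 9 had a median of -0.045, and 0 passed. Among them TUBGCP3 had a log2 fold change of 0.19 and TUBGCP6 of -0.26 (both adjusted p = 0.619). The 10 tubulin folding and autoregulation factors had a median of -0.0043, with 0 genes called by edgeR and 0 at an unadjusted p under 0.05, and the 2 with the smallest p, TBCB and TBCC, both had a log2 fold change of -0.22 (adjusted p = 0.642). The tubulin median stayed between -0.54 and -0.33 without any single library and with the trend on GC content removed.

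Mitochondrial transcripts differed unevenly along the mitochondrial genome. This genome is transcribed as long precursors from both strands, which are cut at the tRNAs that lie between the mRNAs. MT-ND2, a subunit of respiratory complex I (ENSG00000198763, mitochondrial genome, 4470 to 5511, plus strand), had 895, 808 and 895 CPM in 4SU and 563, 572 and 569 CPM in CEP+4SU. The 3 libraries with CEP were close to each other and far below those without it, and the level was lower by a factor of 1.52 (log2 fold change -0.61, SE 0.11, adjusted p = 0.0380). MT-ND2 lost the threshold when any single library was left out, with adjusted p from 0.0626 to 0.335 in edgeR, and also with the length trend removed (adjusted p = 0.0728), with a robust dispersion (adjusted p = 0.0686) and in both limma fits. Its 34 annotated nuclear pseudogenes summed to 33.0 to 37.4 CPM in 4SU and 20.5 to 21.3 CPM in CEP+4SU, so that gene and pseudogenes together had a log2 difference of -0.61. MT-TC (ENSG00000210140) had 29.2, 30.01 and 24.7 CPM in 4SU and 15.4, 12.7 and 12.6 CPM in CEP+4SU. It was lower by a factor of 2.06 (log2 fold change -1.04, SE 0.14, 95% interval -1.33 to -0.75, adjusted p = 0.00432) and passed in 16 of 20 other fits, failing in both limma fits of FPKM and without 4SU replicate 1 or CEP+4SU replicate 3. Poly(A) selection captures mature tRNA poorly, and which molecules these counts stand for was not tested. MT-TC lies on the minus strand, and whether counting used the strand of reads is not stated, so reads of the opposite strand cannot be told apart.

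Some of the genes near these were low as well. MT-ND1, another complex I subunit, had 567, 475 and 550 CPM in 4SU and 338, 410 and 394 CPM in CEP+4SU (log2 fold change -0.48, SE 0.15, adjusted p = 0.619). MT-TN, the asparagine tRNA beside MT-TC, had 21.0, 17.6 and 14.8 CPM in 4SU and 8.17, 12.2 and 8.09 CPM in CEP+4SU (log2 fold change -0.90, SE 0.19, adjusted p = 0.214). MT-TL1, the leucine tRNA between MT-RNR2 and MT-ND1, had 4.02, 2.30 and 3.39 CPM against 1.18, 1.25 and 1.31 CPM (log2 fold change -1.38, SE 0.31, adjusted p = 0.256). None of these 3 genes had overlapping groups, and none passed. Of the 9 tested mitochondrial tRNAs, 3 lay wholly below and 2 wholly above the 4SU libraries. Over all genes the shares were 6.01% and 7.58%. MT-TN and MT-TL1 were singled out after their values were seen.

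Of 13 mitochondrial mRNAs tested, MT-ND2 alone passed. At an unadjusted p under 0.05, 0 were higher and 3 lower, against 4.23% and 3.66% of all genes. The 3 were MT-ND1, MT-ND2 and MT-ND6, the last with a log2 fold change of -0.28 (SE 0.13, adjusted p = 0.619) and overlapping groups. All 3 libraries with CEP lay below all 3 without it for MT-ND1, MT-ND2 and MT-ND5, which was at -0.18 (SE 0.096, adjusted p = 0.619). They lay above for 0 of the mRNAs, and the shares over all genes were 6.01% below and 7.58% above. The median over the 13 mRNAs was -0.054. It ranged from -0.16 without CEP+4SU replicate 3 to -0.019 without CEP+4SU replicate 1, and it was -0.13 with the GC trend removed and 0.016 with the length trend removed. The 11 mRNAs other than MT-ND1 and MT-ND2 summed to 10351, 9180 and 10365 CPM in 4SU and 8589, 9812 and 11022 CPM in CEP+4SU, with overlapping groups and a log2 difference of -0.028. Of the mitochondrial rRNAs, MT-RNR2 had a log2 fold change of -0.23 (SE 0.086, adjusted p = 0.619). MT-RNR1 ranged from 350 to 1030 CPM in 4SU and from 458 to 917 CPM in CEP+4SU, too wide a spread to show a difference (log2 fold change -0.047, SE 0.38). Of 22 mitochondrial tRNAs only 9 had enough counts to be tested, with a median of -0.74, 7 lower and 2 higher. This median ranged from -1.004 without CEP+4SU replicate 2 to -0.42 without CEP+4SU replicate 3, and it was -0.54 over the 6 tRNAs with at least 10 counts in every library. The nuclear genes of the same machinery did not pass. The 37 nuclear-encoded complex I subunits had a median of -0.014 with 0 genes called by edgeR and 0 at an unadjusted p under 0.05, and the lowest p belonged to NDUFA13 (log2 fold change -0.52, SE 0.26) and NDUFB7 (-0.25, SE 0.15). The 22 mitochondrial transcription and RNA processing factors had a median of 0.054, also with 0 called and 0 at an unadjusted p under 0.05. POLRMT, the mitochondrial RNA polymerase, was at -0.25 (SE 0.13) and FASTKD3 at 0.29 (SE 0.14).

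**Figure D2:**
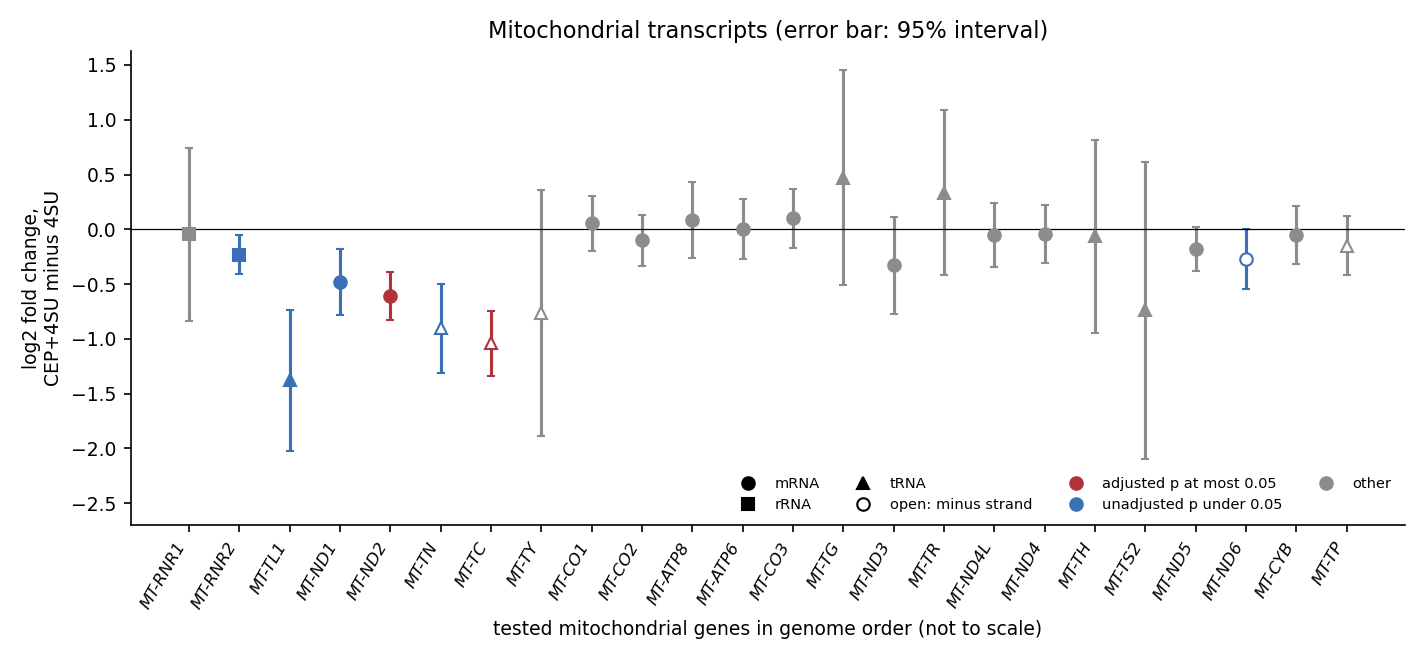
Log2 fold change of CEP+4SU minus 4SU with its 95% interval for the tested mitochondrial genes, in genome order by rank (open symbols: minus strand). The tested genes from MT-TL1 to MT-TC lie between -1.38 and -0.48, and the mRNAs from MT-CO1 to MT-CO3 lie near 0.

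TXNIP, an inhibitor of thioredoxin whose mRNA is short-lived and responds to glucose, was lower with CEP. TXNIP (ENSG00000265972, chromosome 1, 145992435 to 145996600) had 51.6, 49.4 and 49.96 CPM in 4SU and 30.7, 38.3 and 28.9 CPM in CEP+4SU. The 4SU libraries were close to each other and all above the libraries with CEP, and the level was lower by a factor of 1.54 (log2 fold change -0.62, SE 0.11, adjusted p = 0.0380). The call was kept when CEP+4SU replicate 2 was left out (adjusted p = 0.0033) and lost without any other library, with adjusted p up to 0.278 in edgeR. It was also lost with only the 6 libraries (adjusted p = 0.110), with the length trend removed (adjusted p = 0.0566) and in both limma fits.

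SMN1, which encodes a protein that assembles spliceosomal ribonucleoproteins, had the largest fall of the 8 genes and the least even replicates. SMN1 (ENSG00000172062, chromosome 5, 70925030 to 70953942) had 94.3, 56.1 and 54.1 CPM in 4SU and 27.0, 35.5 and 24.8 CPM in CEP+4SU. The log2 fold change was -1.23 (SE 0.19, adjusted p = 0.0259). SMN1 passed in 14 of 20 other fits. It failed without 4SU replicate 1, CEP+4SU replicate 1 or CEP+4SU replicate 3 (adjusted p up to 0.216 in edgeR), with a robust dispersion (adjusted p = 0.402) and in both limma fits. Its near-identical paralog SMN2 went the other way, from 21.0, 21.2 and 22.7 CPM to 30.5, 28.5 and 26.9 CPM, a log2 difference of 0.40 between group means. Reads that fit both genes can be assigned to either, so the value of each gene is uncertain. Summed, the pair had 115, 77.3 and 76.8 CPM in 4SU and 57.5, 64.0 and 51.7 CPM in CEP+4SU, a log2 difference of -0.62. Without 4SU the sums overlapped, at 69.9, 63.9 and 82.9 CPM in DMSO and 67.8, 74.6 and 63.4 CPM in CEP.

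Stress pathways that electrophiles are known to engage showed no gene past the threshold by edgeR in these cells. Of the 17 heat shock genes tested, 7 were higher and 1 lower at an unadjusted p under 0.05, against 4.23% and 3.66% of all genes. The 17 had a median log2 fold change of 0.15. Among them HSP90AA1, a cytosolic chaperone, had 2768, 3005 and 2960 CPM in 4SU and 3028, 3604 and 3233 CPM in CEP+4SU (log2 fold change 0.18, SE 0.067, adjusted p = 0.619), and CHORDC1, a co-chaperone of HSP90, was at 0.24. HSPB1, a small heat shock protein, was at -0.33. The heat shock median was 0.093 with the trend on GC content removed, 0.082 without 4SU replicate 1 and 0.093 without CEP+4SU replicate 2. The 20 NRF2 antioxidant genes had a median of 0.047. HMOX1, which degrades haem and is the usual marker of this pathway, had 78.0, 62.0 and 65.9 CPM in 4SU and 63.5, 51.2 and 56.7 CPM in CEP+4SU (log2 fold change -0.27, SE 0.10, adjusted p = 0.619). TXN, thioredoxin, was at 0.19 (SE 0.075, adjusted p = 0.619). The integrated stress response (20 genes) and ER stress lists (10 genes) had medians of 0.011 and -0.0043. Their genes with the smallest p were CEBPB (-0.29), TRIB3 (-0.22), SDF2L1 (-0.31) and EDEM1 (0.16). The 17 p53 targets had a median of -0.018, with GDF15, a secreted stress cytokine, at -0.88 (SE 0.36) from 2.01, 2.36 and 2.76 CPM to 1.61, 1.10 and 1.16 CPM, and RRM2B at 0.25.

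The other lists held no gene that passed. The 5 metallothionein and zinc response genes tested had a median of 0.016 (MT1F 0.49, MT2A -0.24). The 12 interferon response genes had one of -0.028 (IFIT3 0.74, IRF7 -0.36). The 17 sterol synthesis genes had one of -0.061 (LSS -0.20, INSIG1 -0.21), and the 14 hypoxia genes one of 0.070. ADM, a vasodilator peptide induced by hypoxia, had 10.4, 9.43 and 9.91 CPM in 4SU and 15.2, 14.7 and 13.5 CPM in CEP+4SU (log2 fold change 0.54, SE 0.14, adjusted p = 0.535), and ANKRD37 was at -0.74 (SE 0.40). The 9 regulators of the transcription elongation kinase P-TEFb had a median of 0.15, with 3 higher and 1 lower at an unadjusted p under 0.05, against 4.23% and 3.66% of all genes. They were its cyclin CCNT1 at 0.24, LARP7 at 0.20 and AFF4 at 0.21, and its kinase subunit CDK9 at -0.25 (each adjusted p = 0.619). The median was 0.065 without CEP+4SU replicate 1 and 0.087 without 4SU replicate 3. The 79 cytoplasmic ribosomal protein genes had a median of -0.025, and the 2 with the smallest p were RPS10 (-0.71) and RPS28 (-0.32). The genes of 9 proteins that the study followed for RNA binding lay between -0.045 and 0.13, with EXOC4, of the exocyst, at 0.13 (SE 0.099) and the helicase DDX3X at 0.10 (SE 0.068). None of these lists and of the stress lists above held a gene that passed in edgeR or in DESeq2, and the smallest adjusted p in edgeR was 0.535.

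The same treatment without 4SU gave an overlapping set of genes in other libraries. For CEP against DMSO, 10 of 17729 genes (0.0564%) passed in edgeR. Of the 8 genes called with 4SU and the 10 called without it, 5 were called in both, which is 5 of 8 and 5 of 10: FOS, MT-TC, MT-ND2, TUBB4B and TUBB2A. All 10 genes called without 4SU had the same sign with it, and 9 of them had an unadjusted p under 0.05. The exception was SMIM11A, with 17.1, 1.41 and 27.2 CPM in CEP, 1.18 to 1.45 CPM in DMSO and 1.00 to 3.22 CPM in the 6 libraries with 4SU (log2 fold change 0.066 with 4SU). All 8 genes called with 4SU had the same sign without it, and 7 had an unadjusted p under 0.05. The exception was SMN1, at -0.29 (SE 0.19) without 4SU.

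Side by side, the log2 fold change of FOS was 1.54 with and 1.54 without 4SU, that of MT-TC -1.04 and -0.92, that of TUBB2A -0.77 and -0.73, and that of TXNIP -0.62 and -0.57. CYR61 was at 0.78 and 0.52, TUBB4B at -0.62 and -0.83, MT-ND2 at -0.61 and -0.88 and DUSP5 at 0.83 and 1.34. The test of the difference, the interaction of CEP with 4SU, called 0 genes (0%) in edgeR, with 467 at an unadjusted p under 0.05, and 0 in DESeq2, with 535. Its 95% interval for FOS was -0.56 to 0.57 and for TUBB4B -0.11 to 0.53. Differences within these bounds were compatible with the data, and the bounds are not a detection limit. SMN1 had the lowest interaction of the 8, at -0.94 (95% interval -1.50 to -0.37, adjusted p = 0.9998 in edgeR). Over all genes tested 69.72% had the same sign in both comparisons, with Pearson's r of 0.196 across genes, which are not independent replicates. Among the 1399 genes with an unadjusted p under 0.05 with 4SU the share was 88.06%, and it was 28 of 29 genes for p under 0.001. With each library's trend on GC content removed the shares were 57.78% over all genes (r of 0.0844), 73.79% of 1030 genes at p under 0.05 and 42 of 43 at p under 0.001. Replicate 2 of CEP and of CEP+4SU shared a low number of genes with a count and a low slope on GC content (given below). How far this shared trait entered the agreement was not tested.

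**Figure D3:**
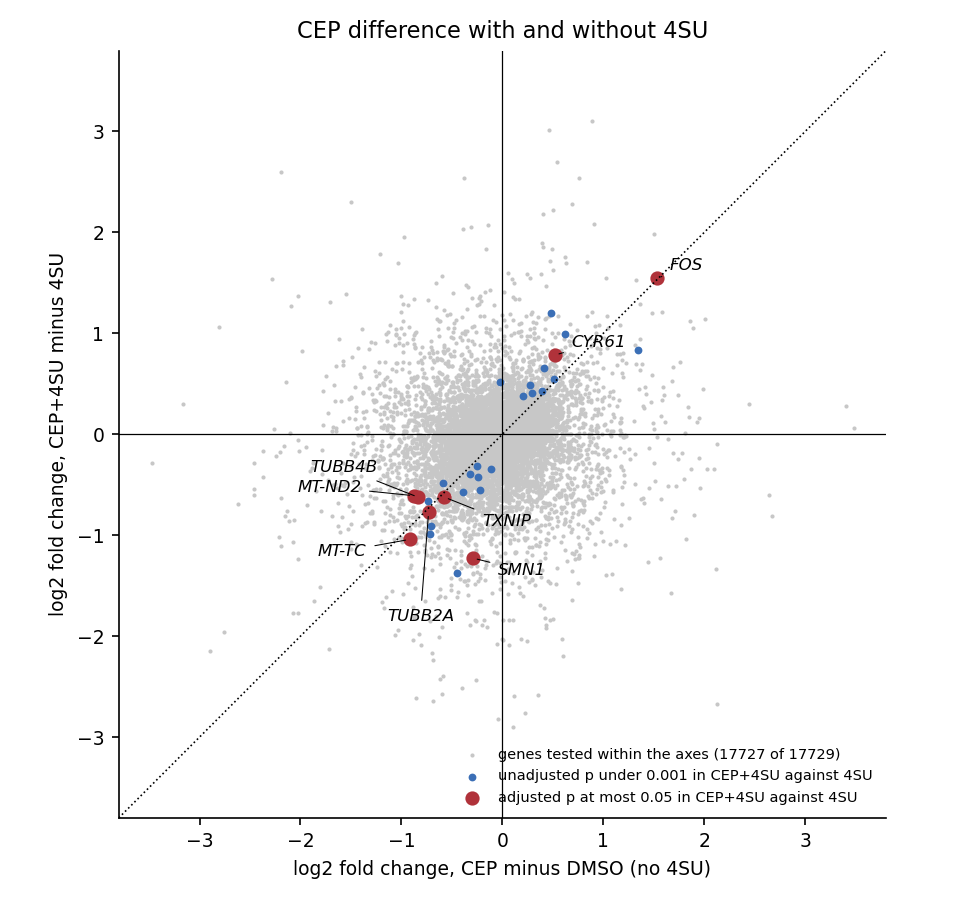
Log2 fold change of CEP+4SU minus 4SU (vertical) against that of CEP minus DMSO (horizontal) for 17727 of the 17729 genes tested, with genes of unadjusted p under 0.001 in blue and the 8 called genes in red; the dotted line marks equal change. FOS lies on the line at 1.54, and 28 of 29 genes with p under 0.001 have the same sign on both axes.

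A trend on base composition ran through the comparison. Sorted into 10 equal groups by the GC content of their longest transcript, genes had a median log2 fold change from 0.13 in the lowest group (36.9% GC) to -0.19 in the highest (64.2% GC). The slope of expression on GC content, in log2 units per 10 GC points, was 0.12, -0.010 and 0.026 in 4SU replicates 1 to 3. In CEP+4SU it was 0.036, -0.22 and -0.024, lowest in replicate 2 (exact permutation test, two-sided, p = 0.3). In CEP without 4SU it was 0.041, -0.17 and -0.12, also lowest in replicate 2. The 8 called genes had GC contents from 41.9% (SMN1) to 59.5% (TUBB4B), against a median of 48.5%. With the trend removed from each library 14 genes were called, among them all 8. The median log2 fold change of the tubulins was then -0.33.

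**Figure D4:**
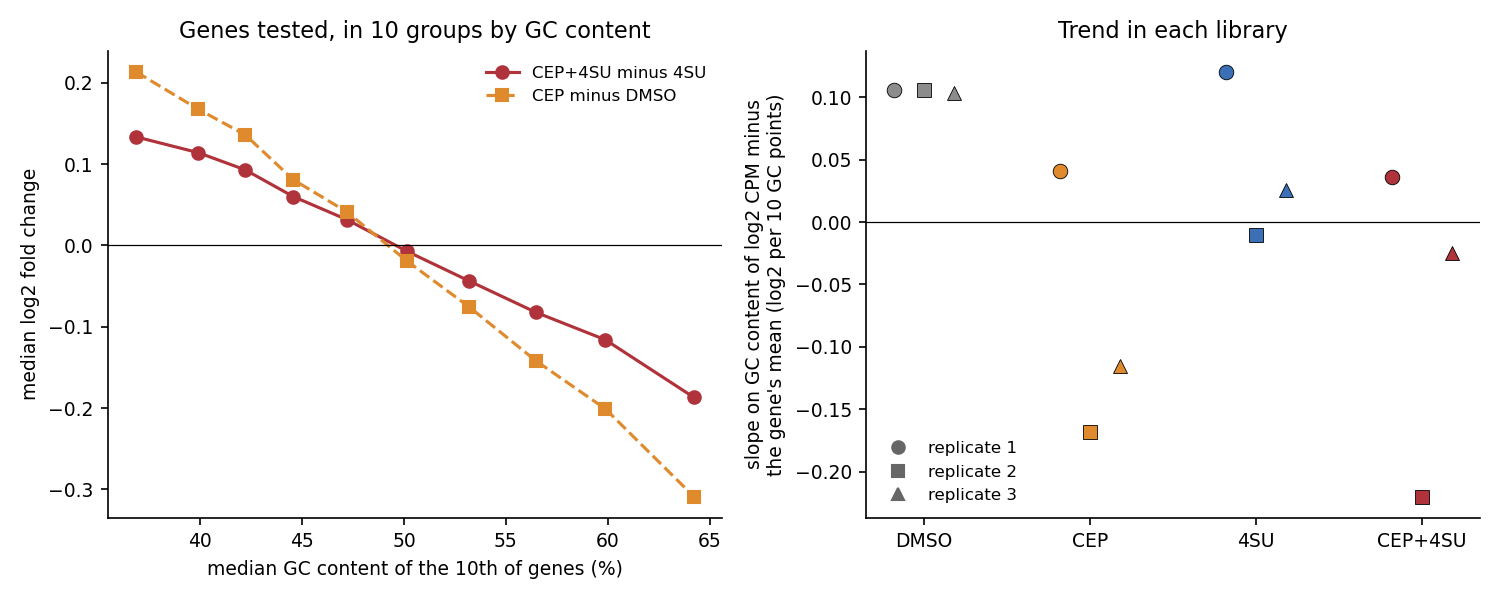
Left, the median log2 fold change of genes in 10 groups by GC content (%), for CEP+4SU minus 4SU and for CEP minus DMSO. Right, the slope on GC content of each library's log2 CPM relative to the gene's mean, where CEP+4SU replicate 2 is lowest at -0.22.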

How the data were processed

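Poly(A) RNA of HEK293T cells was sequenced in 12 libraries, 3 for each of 4 treatments. After cleaning of the reads for adapters, undetermined bases and quality, the authors used HISAT2 2.0.5 against GRCh38 and featureCounts 1.5.0-p3 for counting, with the strand setting not given in the sources used here. The deposited counts are whole numbers per gene without normalization. The deposited FPKM values are the authors' own scaling of those counts by gene length and library size, and were used here for levels between genes and for a check with limma. Identifiers of 58735 of 58735 genes were found in GENCODE 29.

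Groups came from the treatment labels. In R 4.3.3, edgeR 4.0.16 filtered genes (minimum count 10, minimum total 15), applied TMM, and fitted a quasi-likelihood model to all 12 libraries of the 4 groups, with contrasts CEP+4SU minus 4SU, CEP minus DMSO and their interaction (prior count 0.125). Adjusted p-values are Benjamini-Hochberg values over all genes tested, with a threshold of 0.05, and intervals are 95%. The common biological coefficient of variation was 0.114. Library measures were compared by exact permutation tests. The code was tested on simulated data. Depth was 16569114 to 24644734 counts per library.

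The comparison, the 28 gene lists (475 genes, 435 of them tested and 4 found under an older symbol) and the rule for named genes were chosen with earlier results of these data known. The rule names all genes past the threshold with at least 1 CPM and no overlap, further genes by p up to 5 per direction, members of lists that pass, or the 2 with the smallest p of a list without one, and genes called for CEP against DMSO. Alternatives were DESeq2 1.42.0, limma 3.58.1 on log2(FPKM + 1) and log2(FPKM + 0.1), other normalizations, filters and thresholds, a robust dispersion, only the 6 libraries, trends on length or GC content removed, replicate number as a block, and each library left out in turn. The replicate numbers were not taken to pair the libraries, since the methods of the study state no block. Deviations of 4SU and CEP+4SU libraries of equal number correlated at 0.0747, 0.0735 and 0.0105 across genes. For libraries of unequal number the correlations ran from -0.0978 to 0.0476. Protein data of the study and the reads were not used here.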

Additional observations from a re-analysis of the deposited data

How the results depend on the processing

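Of the genes named, FOS, CYR61, SMN1, MT-TC, TUBB2A, TUBB4B, TXNIP and MT-ND2 kept their direction in 20 of 20 other fits, with log2 fold changes of 0.99 to 1.64 for FOS and -1.16 to -0.94 for MT-TC. The fits reuse the same libraries, whose groups do not overlap for these 8 genes, so a kept direction is no separate support. The 8 genes passed in 17 (FOS), 16 (MT-TC), 14 (SMN1), 11 (CYR61, TUBB2A, TUBB4B, TXNIP) and 10 (MT-ND2) of the 20 fits. The number of genes called moved more. For CEP+4SU against 4SU it was 8, and it was 16 with DESeq2, 65 with no filter on low counts, 0 with limma on either log2 FPKM scale (1254 and 1238 genes at an unadjusted p under 0.05), 5 with the length trend removed, 14 with the GC trend removed, 5 with a robust dispersion, 23 at an adjusted p of 0.5 and 3 with an absolute log2 fold change of at least 1. Leaving out 1 library gave 0 (without 4SU replicate 1) to 5 (without CEP+4SU replicate 2). For CEP against DMSO it was 10, and it was 253 with DESeq2, 662 with no filter, 1 with limma on either scale, 5 with only the 6 libraries, and 4 (without DMSO replicate 2) to 1214 (without CEP replicate 1) with 1 library left out. For the interaction it was 0, and it was 15 with no filter and 0 to 1 with 1 library left out. With the replicate block the counts were 16 for CEP+4SU against 4SU and 780 for CEP against DMSO, and with the block and the GC trend removed they were 16 and 25. All 8 genes were among both 16s. CEP+4SU replicates 1 and 2 correlated best with the 4SU library of their own number and replicate 3 did not, which is a hint from the data and not the design. MT-RNR1, near 0 as reported, turned positive with the block (0.15), with limma (0.027 and 0.028), with the length trend removed (0.0049), with the block and the GC trend removed (0.11), and without 4SU replicate 2 (0.084), 4SU replicate 3 (0.22) or CEP+4SU replicate 2 (0.20), and lay between -0.41 and 0.22 with 1 library left out. DDX3X turned to -0.0095 with the GC trend removed and to -0.0094 with the block as well. SMIM11A turned to -0.035 with limma on log2(FPKM + 0.1), -0.095 without 4SU replicate 1 and -0.43 without CEP+4SU replicate 1, within -0.43 to 0.38 with 1 library left out. The cause of these differences between fits was not tested.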
